A study of Mus musculus with 2 samples.

Results

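Dnmt1, Dnmt3a, Dnmt3b, Dnmt3l, Tet1, Tet2, Tet3, Tdg and Mbd2 encode proteins that set, copy, read or remove DNA methylation. The 9 genes were chosen by name, each matched 1 identifier, and they are 9 of the 55536 annotated genes in the deposited tables. Their RNA was measured in the heart of male B6CASTF1/J mice at 10 days of age. These animals are a cross between the B6 laboratory strain and CAST, a strain derived from wild mice. There was 1 group of 2 libraries, replicate 1 and replicate 2, and no treatment or genotype to compare. The labels number the males separately but give both libraries 1 donor record, so the spread given here is that between these samples and may be technical. The data bear on which of the genes were present, at what level and in which transcript forms, and on how far the libraries differed.

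The total expected count, that is the reads assigned to genes with reads that fit several genes divided among them, was 38851514 in replicate 1 and 37907585 in replicate 2. These counts and the levels below come from the first of 2 deposited quantifications unless the other is named. All 10 cardiomyocyte markers were detected, and the lowest of them had 320 TPM in replicate 1 and 308 TPM in replicate 2. TPM is a level scaled by transcript length and library, and levels of genes are set side by side in it throughout. By the median ratio of a list, the libraries differed most in 2 marker lists. Of the adipocyte markers, 7 of 7 with enough counts were higher in replicate 1, their summed level was 453 TPM in replicate 1 and 49.96 TPM in replicate 2, and Lep and Retn were at 0 in replicate 2. Of the atrial markers, 7 of 8 were higher in replicate 1, with summed levels of 1557 TPM in replicate 1 and 299 TPM in replicate 2 and none at 0. Ucp1, the uncoupling protein of brown fat, had 239 TPM in replicate 1 and 5.02 TPM in replicate 2, and Cidea, a lipid droplet protein, had 82.2 and 24.2 TPM. Nppa, the atrial natriuretic peptide, had 753 TPM in replicate 1 and 116 TPM in replicate 2, and Myl7, the atrial myosin light chain, had 393 and 86.6 TPM. The part of these cells in the values below was not tested.

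In mammals, DNA methylation sits mainly on cytosines that are followed by guanine. Dnmt1 copies the mark onto the new strand when DNA is replicated, with the help of Uhrf1, and Dnmt3a and Dnmt3b place it on unmethylated DNA. Tet1, Tet2 and Tet3 oxidise methylcytosine step by step, and Tdg cuts out the most oxidised bases for replacement through base excision repair. Mbd2 binds methylated DNA and brings the NuRD complex, which remodels and deacetylates chromatin. In mouse cardiomyocytes the methylation of many genes is known to change after birth.

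Of the 9 genes, 7 were detected, that is at 1 TPM or more in both libraries, where 22.9% of all annotated genes and 52.4% of protein-coding genes were. Mbd2 and Dnmt3a stood highest, with means of 44.6 ± 8.15 TPM and 43.6 ± 0.148 TPM (SD, n = 2). Tet3, Tet2, Tdg, Dnmt1 and Tet1 followed between 19.97 and 10.0 TPM. Dnmt3b lay at the detection limit and Dnmt3l at or next to 0. The median of the mean TPM over the detected protein-coding genes was 10.4 TPM, and Mbd2 and Dnmt3a were at percentiles 87.3 and 87.1 of these genes, Dnmt1 and Tet1 at percentiles 50.3 and 48.7. In bulk RNA from a tissue, fewer cells that express a gene and less of its RNA per cell cannot be told apart.

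**Figure D1:**
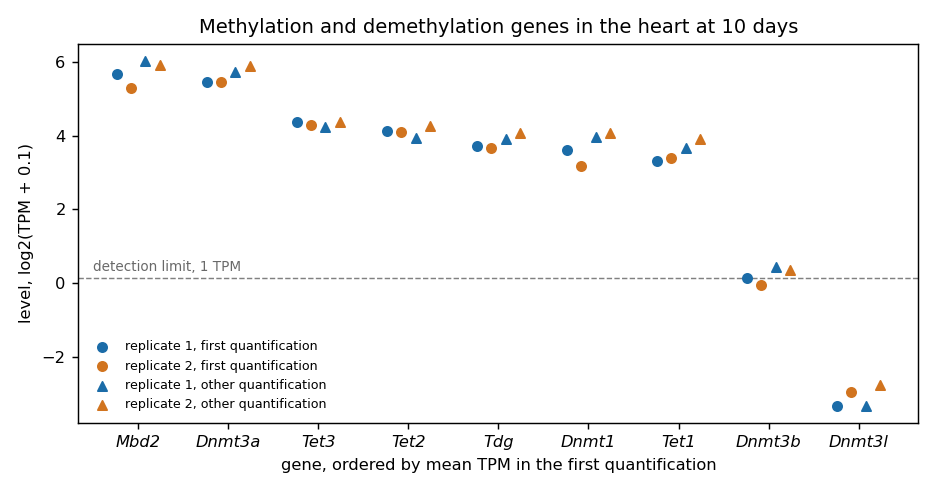
Level of each of the 9 genes on a log2(TPM + 0.1) scale, by gene in order of the mean TPM of the first quantification. Circles are the first quantification and triangles the other one, blue replicate 1 and orange replicate 2, and the dashed line is 1 TPM; Dnmt3b sits at that line and Dnmt3l at the bottom, and the other 7 genes lie above 8 TPM in every case.

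Neighbours in the order were counted as apart when the lower library of the higher gene lay above the higher library of the lower gene, which was so for 6 of 8 steps. Mbd2 and Dnmt3a were not apart, and neither were Dnmt1 and Tet1. In the other quantification, a transcript table made directly from reads, 5 of 8 of the same steps were apart. Tet3 and Tet2, Tet2 and Tdg, and Tdg and Dnmt1 were apart in the first quantification and not in the other. Mbd2 over Dnmt3a and Dnmt1 over Tet1 were apart in the other quantification and not in the first. Dnmt3a over Tet3, Tet1 over Dnmt3b and Dnmt3b over Dnmt3l were apart in both. With 2 libraries an exact sign-flip test of a pair cannot give a two-sided p below 0.5, so no test was made of these differences.

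Dnmt1, the enzyme that keeps methylation through cell division, lies on the minus strand at chr9:20907209-20959888 (mm10). Its level was 12.1 TPM in replicate 1 and 8.94 TPM in replicate 2. In the other quantification it was 15.5 TPM in replicate 1 and 16.6 TPM in replicate 2, so the order of the libraries turned, and the mean was 1.53 times that of the first. The difference lay partly in short non-coding transcripts: Dnmt1-205 had 0 TPM in replicate 1 and 3.44 TPM in replicate 2 in the other quantification, from 26.2 estimated counts in replicate 2. Over the complete coding transcripts alone, a selection added after the values were seen, Dnmt1 had 11.5 TPM in replicate 1 and 8.67 TPM in replicate 2, and 13.6 and 11.1 TPM in the other quantification. Replicate 1 was then higher in both.

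The complete coding transcripts of Dnmt1 start in 2 groups, a cluster that holds Dnmt1-201, Dnmt1-203 and Dnmt1-207 and the upstream start of Dnmt1-202, and reads were assigned to both. Dnmt1-201, of 1620 codons, encodes the protein known from somatic cells. Dnmt1-202, of 1501 codons, begins upstream of it and lacks coding segments 1 to 3 of the 39 of Dnmt1-201, which hold 357 bases. Mouse oocytes are known to make a shorter Dnmt1 from an alternative first exon, and whether this start is that exon was not tested. Of the TPM in complete coding transcripts, Dnmt1-202 held 20.6% in replicate 1 and 22.3% in replicate 2 in the first quantification. In the other quantification it held 38.8% in replicate 1 and 44.8% in replicate 2. The share was larger in the other quantification in both libraries, and close between the libraries in each. The reads do not separate these forms well. Of the 5218 words of 31 bases in Dnmt1-202, 154 occur in no other annotated transcript of Dnmt1. Words shared with other genes were not taken out. The deposited posterior SD of the Dnmt1-202 count was 98.3 around 368 in replicate 1 and 103 around 319 in replicate 2. The 1620-codon form led throughout, with 71.6% in replicate 1 and 71.2% in replicate 2, and 55.4% and 51.7% in the other quantification.

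The windows before these starts differ in their CG dinucleotides, the sites these enzymes act on. Each window below is the 250 bases before a RefSeq start (GRCm38.p6), 5′ to 3′ on the strand of the gene, in lower case with every CG in capitals. They are shown because the forms of Dnmt1 come from these starts. The first is chr9:20952624-20952873, before Dnmt1-203 and Dnmt1-207, with 26 CG. The next is chr9:20952980-20953229, before Dnmt1-201, with 7 CG. As the gene is on the minus strand, the window with 26 CG lies just downstream of the Dnmt1-201 start. The last is chr9:20959889-20960138, before Dnmt1-202, with 2 CG.
Dnmt1 at Dnmt1-203: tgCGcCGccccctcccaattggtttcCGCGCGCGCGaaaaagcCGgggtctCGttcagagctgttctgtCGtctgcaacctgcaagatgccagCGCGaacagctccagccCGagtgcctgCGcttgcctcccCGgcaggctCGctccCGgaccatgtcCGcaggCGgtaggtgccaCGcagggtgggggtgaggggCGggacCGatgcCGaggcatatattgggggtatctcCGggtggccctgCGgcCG
Dnmt1 at Dnmt1-201: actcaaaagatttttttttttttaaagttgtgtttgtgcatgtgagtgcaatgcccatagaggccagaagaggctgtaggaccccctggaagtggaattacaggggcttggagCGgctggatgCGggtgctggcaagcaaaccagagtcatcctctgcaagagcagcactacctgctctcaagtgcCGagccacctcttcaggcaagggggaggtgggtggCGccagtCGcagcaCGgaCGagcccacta
Dnmt1 at Dnmt1-202: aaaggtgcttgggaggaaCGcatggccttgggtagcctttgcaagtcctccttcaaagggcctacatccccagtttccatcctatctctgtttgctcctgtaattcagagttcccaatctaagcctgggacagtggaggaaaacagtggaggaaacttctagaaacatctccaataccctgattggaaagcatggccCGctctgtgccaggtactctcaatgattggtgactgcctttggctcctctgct

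Across 32851 such windows of 27025 genes in RefSeq, 92.1% held at least 1 CG and the median was 6. Fewer CG than in the window before Dnmt1-203 were found in 90.4% of them, and fewer than in the window before Dnmt1-202 in 18.8%. A count of CG describes the sequence and was not measured methylation.

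Uhrf1, which brings Dnmt1 to newly copied DNA, had 9.04 TPM in replicate 1 and 7.57 TPM in replicate 2. The log2 ratio of Dnmt1 over Uhrf1 in TPM, with 0.1 added, was 0.33 ± 0.12 (SD, n = 2), and 0.84 ± 0.14 in the other quantification. Dnmt1 was the higher of the pair in both libraries, by less than 2-fold.

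Dnmt3a, which sets methylation on unmarked DNA, lies on the plus strand at chr12:3806007-3914443. It had 43.7 TPM in replicate 1 and 43.5 TPM in replicate 2, and 52.8 and 59.5 TPM in the other quantification. It was the highest of the methyltransferases in every library. Over all transcripts, the log2 ratio of Dnmt3a over Dnmt1 was 2.06 ± 0.30 (SD, n = 2), a fold of 4.17, and 1.80 ± 0.05 in the other quantification. Over complete coding transcripts alone the genes lay closer. Dnmt3a then had 24.2 TPM in replicate 1 and 24.7 TPM in replicate 2, and Dnmt1 had 11.5 and 8.67 TPM. In the other quantification these were 30.3 and 32.9 TPM for Dnmt3a and 13.6 and 11.1 TPM for Dnmt1. Of its counts, 90.5% in replicate 1 and 90.4% in replicate 2 fell on complete coding transcripts. Of its TPM the same transcripts held 55.3% in replicate 1 and 56.8% in replicate 2, because short partial transcripts weigh more per count. Dnmt3a-204, a partial coding transcript of 1115 bases, held 23.5% and 23.0% of the TPM.

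Dnmt3a is read from a long-form start and from an internal start. The long form of 908 codons, Dnmt3a-201 and Dnmt3a-218, is known as Dnmt3a1. The form of 689 codons, Dnmt3a-203 and Dnmt3a-205, lacks coding segments 1 to 5 of 22, which hold 657 bases, and is known as Dnmt3a2, the main form of germ cells and embryonic stem cells. The 908-codon form had 16.6 TPM in replicate 1 and 15.1 TPM in replicate 2. The 689-codon form had 7.63 TPM in replicate 1 and 9.67 TPM in replicate 2. The long form thus held 68.4% of the complete coding TPM in replicate 1 and 60.9% in replicate 2, and 74.6% and 70.4% in the other quantification. By counts it held 84.9% in replicate 1 (exact 95% interval 83.9 to 85.8%) and 80.7% in replicate 2 (79.7 to 81.8%). Intervals cover counting error only. The error of dividing reads between forms is left out. The posterior SD of the Dnmt3a-203 count was 82.9 around 555 in replicate 1 and 84.6 around 702 in replicate 2. The transcripts also differ in length, at 9685 and 8737 bases for the long form and 5424 and 2328 bases for the 689-codon form. With these limits, the long form led in both libraries and on each scale, and its share was the higher in replicate 1 on each.

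The windows before the Dnmt3a starts are shown, as above. The window nearest before Dnmt3a-201, which had 12.9 TPM in replicate 1 and 14.5 TPM in replicate 2, held 38 CG, at chr12:3806730-3806979. Dnmt3a-218 had 3.66 TPM in replicate 1 and 0.57 TPM in replicate 2, and 7.74 and 5.66 TPM in the other quantification. The posterior SD of its count was 219 around 956 in replicate 1 and 195 around 158 in replicate 2. The window before Dnmt3a-218, at chr12:3806910-3807159, held 40 CG, and 1.31% of all windows held at least as many. The window before Dnmt3a-203 and Dnmt3a-205, at chr12:3891494-3891743, held 15, and 27.3% held at least as many.
Dnmt3a at Dnmt3a-201: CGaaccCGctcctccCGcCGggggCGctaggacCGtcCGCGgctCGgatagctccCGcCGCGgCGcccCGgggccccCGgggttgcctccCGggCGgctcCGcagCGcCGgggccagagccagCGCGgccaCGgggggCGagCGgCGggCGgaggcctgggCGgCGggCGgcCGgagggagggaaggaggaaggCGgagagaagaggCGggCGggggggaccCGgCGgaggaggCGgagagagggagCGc
Dnmt3a at Dnmt3a-218: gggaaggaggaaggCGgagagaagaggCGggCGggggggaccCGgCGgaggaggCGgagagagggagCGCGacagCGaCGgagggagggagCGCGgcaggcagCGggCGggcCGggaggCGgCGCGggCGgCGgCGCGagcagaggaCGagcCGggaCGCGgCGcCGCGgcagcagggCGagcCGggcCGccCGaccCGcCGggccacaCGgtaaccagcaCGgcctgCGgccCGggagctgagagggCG
Dnmt3a at Dnmt3a-203: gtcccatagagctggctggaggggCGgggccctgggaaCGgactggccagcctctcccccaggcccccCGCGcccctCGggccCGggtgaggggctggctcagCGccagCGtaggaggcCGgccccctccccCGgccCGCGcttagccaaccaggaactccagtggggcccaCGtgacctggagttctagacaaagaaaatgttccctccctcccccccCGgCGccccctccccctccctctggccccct

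Dnmt3b, the other enzyme for new methylation, lies on the plus strand at chr2:153649450-153687730. It had 1.01 TPM in replicate 1 and 0.87 TPM in replicate 2, from 102 and 103 counts. In the other quantification it had 1.24 TPM in replicate 1 and 1.19 TPM in replicate 2, above the limit in both. Dnmt3a over Dnmt3b was 5.40 ± 0.13 on the log2 scale (SD, n = 2), a fold of 42.1, and 5.42 ± 0.16 in the other quantification.

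What Dnmt3b RNA there was fell mostly on forms of 776 codons, Dnmt3b-205 and Dnmt3b-206. These lack coding segments 9, 20 and 21 of the 22 of Dnmt3b-202, 249 bases in all, as does the form known as Dnmt3b3, which has lost part of the catalytic domain. They held 67.9% of the complete coding TPM in replicate 1 and 69.6% in replicate 2, and 68.7% and 68.8% in the other quantification. The 860-codon form, Dnmt3b-201 and Dnmt3b-207, held 32.1% in replicate 1 and 30.4% in replicate 2. By counts the 776-codon forms held 65.9% in replicate 1 (exact 95% interval 55.4 to 74.9%) and 67.5% in replicate 2 (57.3 to 76.3%). No word of 31 bases is particular to Dnmt3b-205 or Dnmt3b-206, and their split differed between the libraries, with 0.26 and 0.29 TPM in replicate 1 and 0 and 0.55 TPM in replicate 2. Dnmt3c, a close copy of Dnmt3b active in the male germ line, shares 31.9% of its own words with Dnmt3b and was at 1.12 counts in replicate 1 and 2.32 in replicate 2.

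Dnmt3l, the catalytically inactive partner of Dnmt3a and Dnmt3b in germ cells, lies on the plus strand at chr10:78041947-78063622. It had 0 counts in replicate 1 and 1 count in replicate 2, under the floor of 3 counts, and no fold is given. That floor is 0.0772 CPM, that is counts scaled by the library total, in replicate 1 and 0.0791 in replicate 2. Of the 12 markers of germ cells and pluripotent cells, 0 were detected and 5 were at 0 in both libraries. The RefSeq window before Dnmt3l-202, Dnmt3l-203 and Dnmt3l-206, of which Dnmt3l-203 took that count, is shown for its 3 CG, at chr10:78055085-78055334.
Dnmt3l: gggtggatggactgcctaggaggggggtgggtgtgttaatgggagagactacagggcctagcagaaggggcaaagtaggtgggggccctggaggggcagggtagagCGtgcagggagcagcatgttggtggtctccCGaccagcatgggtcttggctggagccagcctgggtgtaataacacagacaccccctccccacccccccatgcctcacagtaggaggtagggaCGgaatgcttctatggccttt

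**Figure D2:**
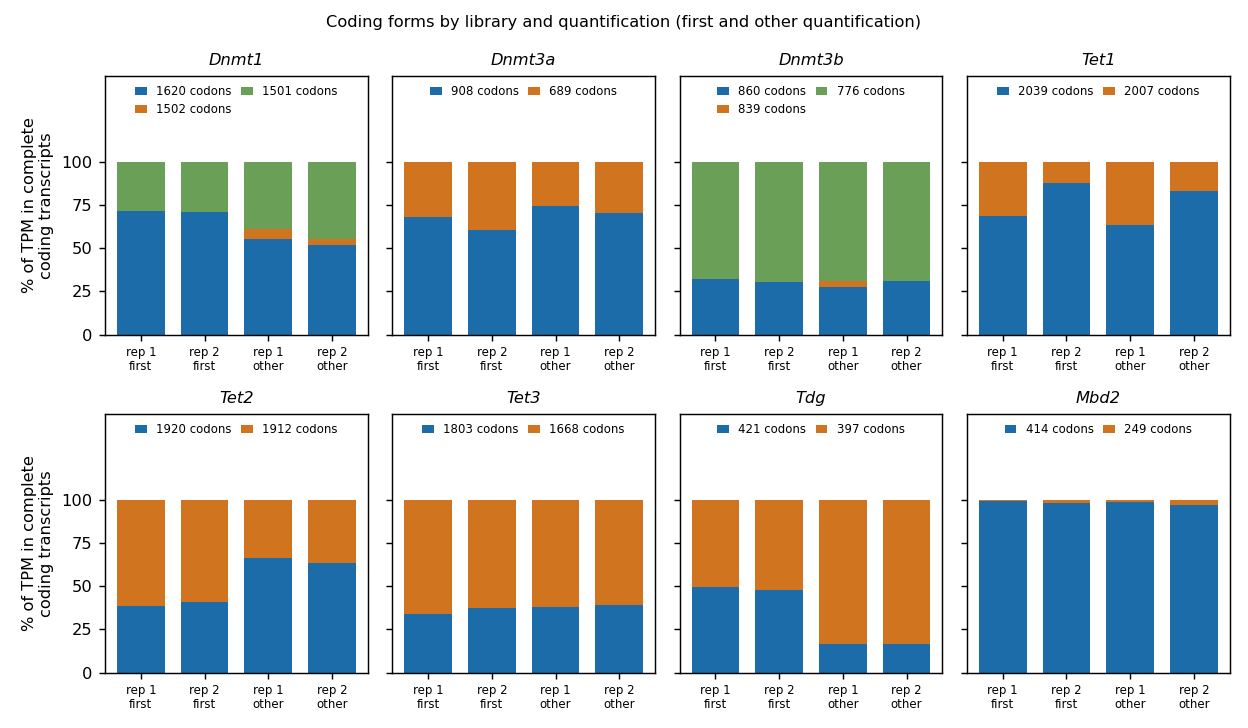
Share of each coding form in the TPM of a gene's complete coding transcripts, in percent, with 4 bars a gene for replicate 1 and replicate 2 in the first and the other quantification. Forms under 1% in every bar are not drawn; the bars of 1 quantification lie close together except for Tet1, where the 2039-codon form is larger in replicate 2, and the bars of Tet2 and Tdg change most between quantifications.

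The Tet enzymes, which oxidise methylcytosine, were all detected, and Tet3 was the highest of them. Tet3, at chr6:83362373-83459084 on the minus strand, had 20.5 TPM in replicate 1 and 19.5 TPM in replicate 2. Tet2, at chr3:133463679-133545139 on the minus strand, had 17.2 TPM in replicate 1 and 17.0 TPM in replicate 2. Tet1, at chr10:62804570-62908996 on the minus strand, had 9.74 TPM in replicate 1 and 10.3 TPM in replicate 2. Tet1 was the lowest of them in every library and quantification. The log2 ratio of Tet3 over Tet1 was 0.99 ± 0.11 (SD, n = 2) and that of Tet2 over Tet1 was 0.77 ± 0.07. In the other quantification these were 0.52 ± 0.09 and 0.31 ± 0.04. Tet3 over Tet2 was 0.22 ± 0.04, and 0.21 ± 0.13 in the other quantification. Over complete coding transcripts alone the levels lay lower and further apart, with 14.5 TPM in replicate 1 and 14.6 TPM in replicate 2 for Tet3, 7.60 and 8.42 TPM for Tet2, and 4.13 and 4.36 TPM for Tet1. Tet3-204, a partial coding transcript of 469 bases, held 25.4% of all Tet3 TPM in replicate 1 and 20.8% in replicate 2, from 1.40% and 1.10% of the counts. Tet2-205, a partial coding transcript of 423 bases, held 28.2% and 19.0% of all Tet2 TPM, from 1.90% and 1.14% of the counts. In the other quantification both transcripts were at or next to 0 TPM. The summed TPM of the Tet genes over all transcripts was 47.5 in replicate 1 and 46.8 in replicate 2, against 56.8 and 53.3 for Dnmt1, Dnmt3a and Dnmt3b together. The log2 ratio of the Tet sum over the Dnmt sum was -0.22 ± 0.05 (SD, n = 2), and -0.54 ± 0.06 in the other quantification.

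Tet3 RNA was assigned more to the shorter coding form. Tet3-203, of 1803 codons, has 2 first coding segments, of 405 bases, that Tet3-202, of 1668 codons, lacks. The longest Tet3 protein is known to carry a CXXC zinc finger near its start, and shorter forms are known that lack it; whether the segments that differ here encode it was not tested. Tet3-202 had 9.57 TPM in replicate 1 and 9.15 TPM in replicate 2, and Tet3-203 had 4.92 TPM in replicate 1 and 5.45 TPM in replicate 2. Tet3-202 thus held 66.0% of the complete coding TPM in replicate 1 and 62.7% in replicate 2, and 62.0% and 60.6% in the other quantification. These forms also differ in length, at 10904 and 5944 bases, and 5669 of the words of Tet3-202 occur in no other Tet3 transcript. The coding segments of Tet3-202 hold no base that those of Tet3-203 lack. These words thus lie largely outside its coding region. How far their reads bear on the share of the coding form was not tested.

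In Tet1, the form of 2039 codons, Tet1-206, led over that of 2007, Tet1-201, and its share differed between the libraries. Tet1-201 lacks coding segment 8 of 12, of 96 bases. Tet1-206 held 68.5% of the complete coding TPM in replicate 1 and 87.8% in replicate 2, and 63.2% and 83.3% in the other quantification. By counts its share was 69.0% in replicate 1 (exact 95% interval 66.8 to 71.2%) and 88.1% in replicate 2 (86.6 to 89.5%). The intervals do not overlap, but they leave out the error of dividing reads between forms: the posterior SD of the Tet1-201 count was 175 around 548 in replicate 1 and 158 around 237 in replicate 2. Tet1-202, a processed transcript of 1505 bases with no coding region, held 41.8% of all Tet1 TPM in replicate 1 and 37.5% in replicate 2, from 8.76% and 7.91% of the counts.

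Tet2 divided between forms of 1912 and 1920 codons that differ by coding segment 5 of 10, of 24 bases. Tet2-201, the shorter, held 61.4% of the complete coding TPM in replicate 1 and 59.3% in replicate 2 in the first quantification. In the other it held 33.4% in replicate 1 and 36.4% in replicate 2. Which form led thus turned between quantifications, and the posterior SD of the count of Tet2-201 was 138 around 1281 in replicate 1. Both start at the window with the most CG among the 14 windows of these genes, at chr3:133544391-133544640, with 51 CG, and 0.067% of all windows held at least as many.
Tet2: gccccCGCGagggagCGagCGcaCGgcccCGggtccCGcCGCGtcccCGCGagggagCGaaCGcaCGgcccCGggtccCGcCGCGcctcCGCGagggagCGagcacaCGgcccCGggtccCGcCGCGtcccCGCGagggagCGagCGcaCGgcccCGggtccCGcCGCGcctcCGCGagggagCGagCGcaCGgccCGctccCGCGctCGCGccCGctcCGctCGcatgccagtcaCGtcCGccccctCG

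**Figure D3:**
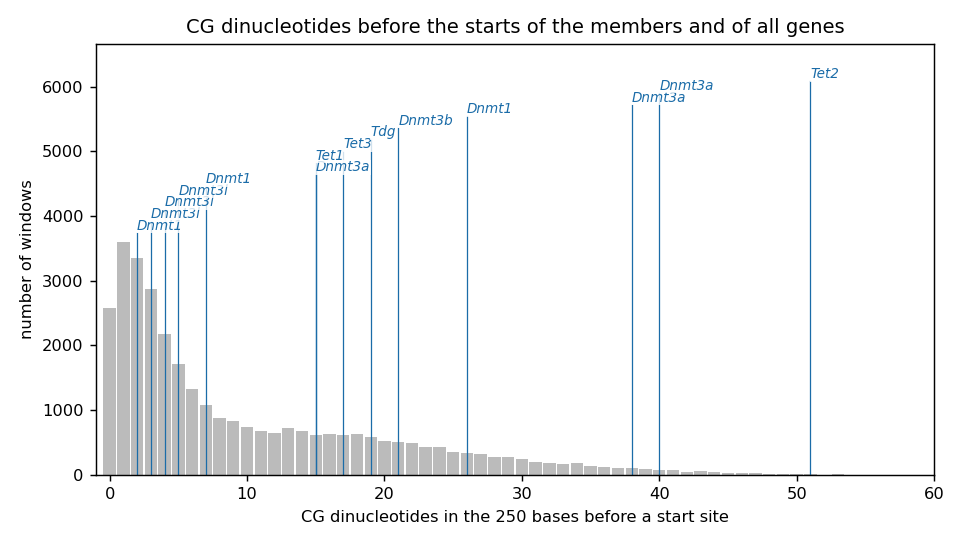
Number of RefSeq promoter windows (y axis) by their CG dinucleotides in 250 bases (x axis), in grey for all genes, with a blue line for each of the 14 windows of 8 genes. The windows of Dnmt3l and the window before Dnmt1-202 lie among those with few CG, and Tet2 and the long-form windows of Dnmt3a lie at the right end.

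Tdg, the glycosylase that cuts out formylcytosine and carboxylcytosine, lies on the plus strand at chr10:82629828-82650799. It had 13.03 TPM in replicate 1 and 12.6 TPM in replicate 2, and 15.0 and 16.7 TPM in the other quantification. Mbd4, another glycosylase for mismatched thymine at CG sites, had 1.07 TPM in replicate 1 and 0.88 TPM in replicate 2. Tdg over Mbd4 was 3.59 ± 0.15 on the log2 scale (SD, n = 2), and 3.36 ± 0.32 in the other quantification, over 2-fold in both libraries.

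The level of Tdg is uncertain because processed copies of it share its sequence. Gm9855 on chromosome 10 has 83.4% of its words of 31 bases in Tdg and was given 182 counts in replicate 1 and 164 in replicate 2. Tdg-ps on chromosome 15 shares 69.2% and was given 93.6 and 85.3 counts. Tdg itself was given 1006 counts in replicate 1 and 917 in replicate 2. Its forms of 397 codons, Tdg-201, and 421 codons, Tdg-208, differ by the first coding segment, of 72 bases. Tdg-201 held 50.3% of the complete coding TPM in replicate 1 and 52.3% in replicate 2, and 83.6% and 83.4% in the other quantification. The forms were near even in the first quantification and far from it in the other.

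Mbd2, which binds methylated CG, lies on the plus strand at chr18:70568189-70626131. It had 50.4 TPM in replicate 1 and 38.8 TPM in replicate 2, and 64.6 and 59.8 TPM in the other quantification. Mbd2-201, of 414 codons, held 99.2% of the complete coding TPM in replicate 1 and 98.2% in replicate 2. Much of the gene's TPM lay elsewhere: Mbd2-204, a retained intron of 494 bases, held 45.8% of it in replicate 1 and 41.6% in replicate 2, from 15.4% and 13.4% of the counts. In the other quantification it held 15.1% in replicate 1 and 27.2% in replicate 2. Over complete coding transcripts Mbd2 had 27.1 TPM in replicate 1 and 22.2 TPM in replicate 2. The same sum was 24.2 TPM in replicate 1 and 24.7 TPM in replicate 2 for Dnmt3a, so these 2 genes were not apart on it in the first quantification. In the other it was 37.0 TPM in replicate 1 and 33.8 TPM in replicate 2 for Mbd2 and 30.3 and 32.9 TPM for Dnmt3a, which were apart. Mbd3, its closest relative and also a NuRD subunit, had 42.7 TPM in replicate 1 and 31.7 TPM in replicate 2. Mbd2 over Mbd3 was 0.27 ± 0.04 on the log2 scale (SD, n = 2).

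None of the 8 genes with a mean count of at least 50 differed over 2-fold between the libraries, where 1.79% of 13213 such genes did. The ratio is that of rounded expected counts, scaled by TMM with 0.5 added, as the log2 of replicate 1 over replicate 2. The exact 95% counting interval left out 1 for 5 of the 8, 1 higher and 4 lower in replicate 1. Over all genes compared it did so for 42.9%, with 20.5% higher and 22.3% lower in replicate 1. All 8 lay between the 5th and the 95th percentile of the genes compared, which were -0.46 and 0.47.

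Dnmt1 was the member higher in replicate 1, with a log2 ratio of 0.19 (interval 0.09 to 0.29). Tet2 had the lowest log2 ratio, at -0.38 (interval -0.45 to -0.30). Tet1 had -0.30 (-0.39 to -0.21), Tet3 had -0.21 (-0.27 to -0.15) and Dnmt3a had -0.19 (-0.24 to -0.14). In the TPM of the first quantification, Tet2, Tet3 and Dnmt3a went the other way. Tet2 had 17.24 TPM in replicate 1 and 17.03 TPM in replicate 2, Tet3 had 20.47 and 19.47, and Dnmt3a had 43.71 and 43.5. In the other quantification the TPM of each was lower in replicate 1. Over complete coding transcripts alone, the TPM of each was lower in replicate 1 in the first quantification too. There Tet2 had 7.60 TPM in replicate 1 and 8.42 TPM in replicate 2, Tet3 had 14.49 and 14.6, and Dnmt3a had 24.18 and 24.73. The partial coding transcripts Tet2-205, at 4.86 and 3.23 TPM, Tet3-204, at 5.19 and 4.05, and Dnmt3a-206, at 6.17 and 4.96, were higher in replicate 1. The direction for these genes thus depended on the scale and on the transcripts summed. For Mbd2, Tdg and Dnmt3b the interval included 0, at 0.09, -0.01 and -0.16. With 1 library a side these values describe the libraries, and no p is given. The median log2 ratio over the 10 cardiomyocyte markers was -0.18, with 9 of 10 lower in replicate 1, and over the 20 proliferation genes it was 0.19, with 19 of 20 higher in replicate 1. It was 0.85 over the mesothelial markers, with 7 of 8 higher in replicate 1. Over the Schwann and neuronal markers, of which 1 of 9 was detected, it was 0.54, with 8 of 8 higher. It was 0.41 over the fibroblast markers, with 9 of 10 higher, and 0.40 over the macrophage markers, with 10 of 11 higher. Over the erythroid markers it was -0.32, with 8 of 8 lower in replicate 1. It was -0.01 over all 16741 genes with a mean count of at least 10. The part of any of these lists in the ratios of the 5 genes was not tested.

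**Figure D4:**
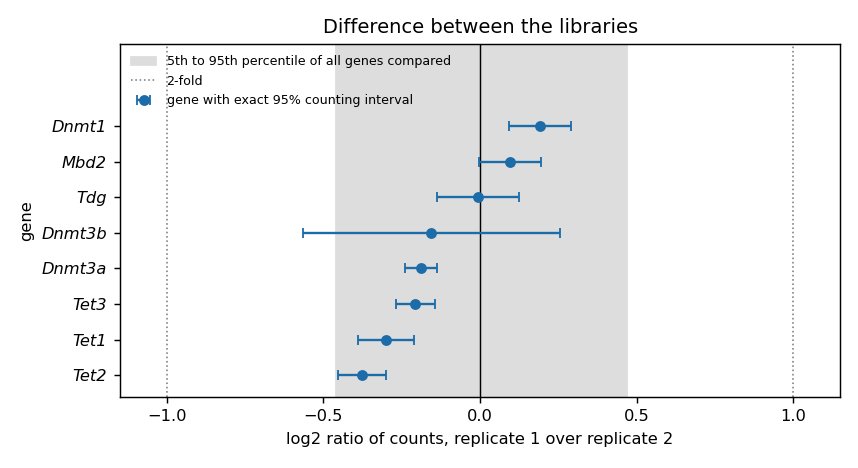
Log2 ratio of counts, replicate 1 over replicate 2, of the 8 genes with a mean count of at least 50, with exact 95% counting intervals. The grey band is the 5th to 95th percentile of all genes compared and the dotted lines are 2-fold; every point lies in the band, Dnmt1 on the right and Tet2, Tet1, Tet3 and Dnmt3a on the left of 0.

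Around the members, 8 of 11 genes of the list of methyltransferases and cofactors were detected. Of all annotated genes 22.9% were, and of protein-coding genes 52.4%. The median of the mean TPM over all 11 was 8.31. It was 5.86 over the genes with a mean count of at least 10 and 9.87 over all detected genes. These sets differ, as the list median takes in genes that were not detected. Dnmt3a was the highest of the list, before Usp7, a deubiquitinase that binds Dnmt1, with 30.8 TPM in replicate 1 and 27.2 TPM in replicate 2. Pcna, the replication clamp that Dnmt1 binds, had 32.6 TPM in replicate 1 and 25.3 TPM in replicate 2. Dnmt3l, Dnmt3c and Dnmt3b were the lowest. In the list, 5 of 9 genes compared had an interval above 0 and 2 below it, as log2 of replicate 1 over replicate 2. Over all genes compared, 20.5% had an interval above 0 and 22.3% below it.

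Of the list of oxidation and base excision, 18 of 22 were detected, where 52.4% of protein-coding genes were, with a median of 9.79 TPM. Ogt, the sugar transferase that binds Tet proteins, was highest at 34.1 TPM in replicate 1 and 33.1 TPM in replicate 2. Parp1, which senses broken strands, had 28.6 TPM in replicate 1 and 23.1 TPM in replicate 2, and Tet3 was next. Dppa3 had 0 counts in both libraries, and Neil2 had 0.34 TPM in replicate 1 and 0.51 TPM in replicate 2. Gadd45b, a stress-induced gene linked to demethylation, was the single gene of the pathway lists over 2-fold apart, with 4.79 TPM in replicate 1 and 12.5 TPM in replicate 2. Its log2 ratio was -1.61 (interval -1.89 to -1.35), and in the other quantification it had 5.33 and 15.2 TPM. Over all genes compared, 1.79% were over 2-fold apart. Of 19 genes compared in the list, 2 had an interval above 0 and 8 below it, against 20.5% and 22.3% of all genes compared.

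Of the list of readers of methylated CG, 11 of 11 were detected, where 52.4% of protein-coding genes were, with a median of 14.7 TPM. Whether each of them binds methylated CG was not tested. Zfp445, a zinc finger protein of imprinted regions, had 48.7 TPM in replicate 1 and 45.2 TPM in replicate 2, next to Mbd2 and Mbd3. The lowest were Zfp57, also of imprinted regions, with 2.35 and 2.42 TPM, and the zinc finger readers Zbtb33 with 5.72 and 4.87 TPM and Zbtb38 with 15.5 and 12.1 TPM in replicate 1 and replicate 2.

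**Figure D5:**
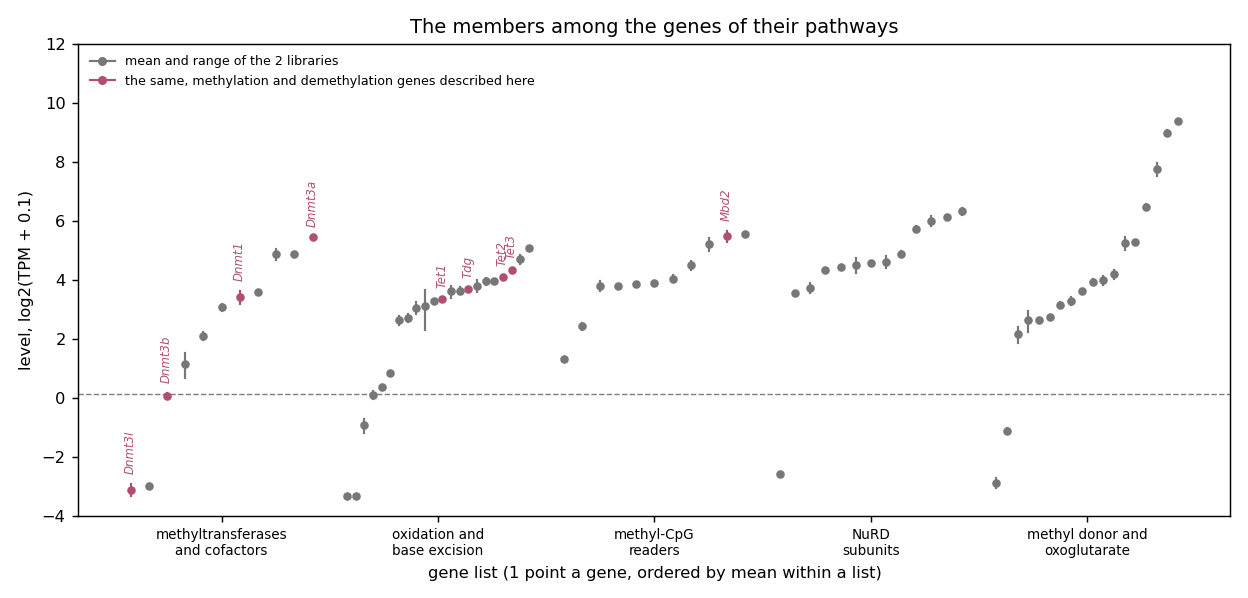
Level of every gene in 5 pathway lists on a log2(TPM + 0.1) scale, 1 point a gene at the mean of the 2 libraries with a line for their range, ordered within each list. The 9 genes described here are in red, and the dashed line is 1 TPM; Dnmt3a is the highest of its list and Dnmt3l the lowest.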

How the data were processed

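RNA of the heart was measured in 2 total RNA libraries, each made from 300 ng of RNA that was reduced in ribosomal RNA and spiked with ERCC controls, per the labels. The authors deposited a gene and a transcript table from alignments to the transcriptome and a transcript table made directly from reads, on mm10 with GENCODE M21, per the deposited notes. Which programs were used, and whether strand was, is not given in the sources used here. Deposited expected counts and estimated counts divide reads that fit several transcripts, and the posterior SD of a count is the authors' own. TPM and FPKM are deposited as well, per the file headers. The mm10 reference is of the B6 strain, so reads of CAST alleles could be lost alike in both libraries. Rows that name no gene held 3.89 and 3 counts, under 1.1e-05 percent, and were left out.

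Expected counts were rounded and scaled by TMM (edgeR 4.0.16), with DESeq2 1.42.0 size factors as an alternative, in R 4.3.3. Exact 95% Clopper-Pearson intervals came from scipy 1.17.1 in Python 3.11.15. A gene was detected at 1 TPM in both libraries. A ratio needed a mean count of 50, and 10 in lists. TPM ratios had a pseudocount of 0.1. Levels are the mean and SD over 2 libraries, and no test between groups was possible. Intervals cover counting error only, and reads with no molecular identifier are not independent molecules. Complete coding transcripts are those annotated as protein-coding with no tag for an incomplete end. Start windows are from RefSeq on GRCm38.p6, matched by symbol for 8 of the genes, and symbols, coordinates and coding segments are from GENCODE M21. With no statement on strand, genes that overlap on opposite strands are uncertain: Glt8d2, opposite Tdg, had 87 and 62 counts, and Dnmt3aos, Dnmt3bos and Aire had 0 in both libraries.

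The genes and lists were chosen with earlier results of these data known. Named genes are the 9 genes, the 3 highest and 3 lowest of each pathway list (1 of them is not reported here), those over 2-fold between the libraries, the partners in ratios, transcripts with 5% or more of a gene's TPM where the text turns on them, and the 2 most abundant members of marker lists with a median over 2-fold. Close copies such as Gm9855 and overlapping genes were chosen after their values were seen. Alternatives were the other quantification, FPKM, TPM over nuclear protein-coding genes, other limits, scalings and pseudocounts, and each library alone.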

Additional observations from a re-analysis of the deposited data

How the results depend on the processing

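The counts of genes, steps, pairs and forms given in the report stayed within 1.5 times under all 51 alternatives run for them. This compares totals and not their members. The steps of the order that were apart numbered 6 in the first quantification and 5 in the other, but were in part different steps. Some single values turned: in the other quantification the library order of the Dnmt1 level and the leading form of Tet2 did, and the ratio of Tdg between the libraries, near 0 at -0.01, was above 0 under the 4 other scalings, at most 0.10 under total count scaling. The number of detected genes was 7 or 8 under every limit, table and scaling tried, Dnmt3b being the gene that changed, and 7 without replicate 1 and 8 without replicate 2. The pairs over 2-fold in both libraries were 3 without replicate 1 and 4 without replicate 2, against 3 with both. Under total count scaling the median log2 ratio of all genes compared moved by 0.11, to 0.10, and Dnmt1 was then at 0.30 and Tet2 at -0.27. The same 5 genes kept an interval that left out 1 under all 4 other scalings of the first quantification, and Mbd2 joined them, higher in replicate 1, under each of the 4. Of the values of single genes, forms and lists, 72 moved by more than their spread, 29 of them in the other quantification, and 159 did not. The leading form changed for 1 of 8 genes in the other quantification, Tet2, and for 1 by counts, Tdg. No paired analysis was possible because the study has 1 group. At this depth a gene with 0 counts is limited to 3 counts, and forms that share nearly all their sequence, as in Dnmt3b, are limited by how reads are divided.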

Other observations

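RNA was detected for nearly all listed subunits of the NuRD complex, which Mbd2 brings to methylated DNA. The complex itself was not measured. Of 13 subunits 12 were detected, where 52.4% of protein-coding genes were, with a median of the mean TPM of 23.4. Rbbp7, a histone-binding subunit, had 87.0 TPM in replicate 1 and 73.6 TPM in replicate 2. Chd4, the main remodelling motor, had 70.9 TPM in replicate 1 and 69.0 TPM in replicate 2, and Cdk2ap1, a small subunit, had 71.4 and 56.9 TPM. The subunits that were lowest were Chd5, a motor known from neurons and testis, with 0.07 TPM in replicate 1 and 0.06 TPM in replicate 2, the scaffold Mta3 with 12.2 and 11.1 TPM, and the deacetylase Hdac1 with 14.7 and 11.7 TPM. None was over 2-fold apart between the libraries, where 1.79% of all genes compared were.

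The genes that make the methyl donor S-adenosylmethionine and handle oxoglutarate, which the Tet enzymes consume, were detected in 16 of 18 cases. Of protein-coding genes 52.4% were detected. The median of the list was 13.7 TPM. Idh2, the mitochondrial isocitrate dehydrogenase, had 672 TPM in replicate 1 and 652 TPM in replicate 2. Ogdh, which consumes oxoglutarate in the citric acid cycle, had 541 TPM in replicate 1 and 474 TPM in replicate 2, and Idh3a, a subunit of another mitochondrial isocitrate dehydrogenase, had 248 and 182 TPM. Mat1a and Gnmt, known as liver genes of the methyl donor, were not detected, with 0.05 and 0.39 TPM in replicate 1 and 0.02 and 0.33 TPM in replicate 2. Ahcy, which clears the spent donor, was next above them with 5.15 TPM in replicate 1 and 3.56 TPM in replicate 2.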
